A study of Mus musculus with 20 samples.

Results

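The BCL2 family of survival and death genes was followed across 5 groups of mouse T cells, as 5 prosurvival members (*Bcl2*, *Bcl2l1*, *Bcl2l2*, *Mcl1* and *Bcl2a1b*) and 5 proapoptotic members (*Bcl2l11*, *Bbc3*, *Pmaip1*, *Bid* and *Bmf*). The members were the rows of the deposited expression table that carried these symbols, 10 of 39179 genes. The table gave 1 value per gene and group, the average of the normalized read counts of that group's libraries, from 20 libraries in all. No library's own value stood in it, so the averages below have no error and no difference between groups was tested.

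All mice were on the C57BL/6 background. Control CD4SP cells (5 libraries) were CD4+TCRβ+CD8- thymocytes labelled wild type, and the study's methods allow littermates or Id3+/- mice as controls. The same gate at the same age of 8 weeks gave CD4SP cells labelled Id3-/- (3 libraries) and CD4SP cells lacking both Id2 and Id3, called dKO here (3 libraries). In the dKO mice both genes were floxed and removed by IL7R-Cre, which is active from lymphoid progenitors onwards, so the deletion was not limited to CD4SP cells. This Cre is inserted into the *Il7r* gene itself. TFH cells (3 libraries) were CD4+TCRβ+CD44highCXCR5+ cells sorted from spleen after wild-type animals had been injected with sheep red blood cells to raise a germinal centre response. The 6 lymphomas arose in mice without Id2 and Id3. Of these, 4 came from lymph node, 1 from spleen and 1 from thymus, and 4 were sorted as CD4+ and 2 as CD8+ TCRβ+ cells. The labels do not give the Cre line of each lymphoma, and an average over 6 tumours need not describe any 1 of them.

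BCL2 family proteins decide whether the mitochondrial outer membrane is opened in a cell under stress. BAX and BAK form the pores that release cytochrome c and start the caspase cascade, and the prosurvival proteins BCL2, BCL-XL (*Bcl2l1*), BCL-W (*Bcl2l2*), MCL1 and A1 (*Bcl2a1b*) hold them in check. The BH3-only proteins BIM (*Bcl2l11*), PUMA (*Bbc3*), NOXA (*Pmaip1*), BID and BMF bind the prosurvival proteins, each with its own preferences, and some also engage BAX and BAK directly. In the thymus BIM is needed for the deletion of self-reactive thymocytes, and BCL2 and MCL1 keep maturing T cells alive. Id2 and Id3 are inhibitors of E proteins, transcription factors that bind the E-box, CANNTG.

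The deleted genes were read first as a check of the labels. The *Id2* average was 2293 in control CD4SP cells, 1628 in TFH cells and 1764 in the Id3-/- libraries, but 6.82 in dKO CD4SP cells and 30.5 in the lymphomas. The *Id3* average was 1991 in control CD4SP cells, 1777 in TFH cells, 879.7 in dKO CD4SP cells and 857 in the lymphomas, and 2649.7 in the libraries labelled Id3-/-. The *Id3* level therefore did not show a loss in the libraries labelled Id3-/-. Whether the deleted allele still gives a transcript that is counted was not tested, and the group is called by its label throughout. Of 4 TFH markers 3 were more than 2-fold above control in TFH cells and 2 in each of the Id3-/- labelled, dKO and lymphoma groups. None of 6 T cell markers was more than 2-fold below control in TFH or Id3-/- labelled cells, 1 was in dKO cells and 2 were in the lymphomas. Markers of B cells were more than 2-fold above control for 6 of 6 genes in TFH cells, 1 in the lymphomas and none in the other 2 groups, and they summed to 86.9 in control, 58.7 in the Id3-/- group, 91.7 in dKO cells, 535 in TFH cells and 543 in the lymphomas, where *Cd79b* alone gave 455. Of 6 measured myeloid markers 4 were higher in the lymphomas and 2 in each other group. Together with *Adgre1*, which reached at most 3.96, they summed to 143 in control, 177 in TFH cells, 225 in the Id3-/- group, 254 in dKO cells and 599 in the lymphomas. *Itgam* stood at 69.4 in control, 181 in dKO cells and 274 in the lymphomas. *Lyz2* stood at 3.82 in control, 65.1 in the Id3-/- group and 123 in the lymphomas. Proliferation genes were higher for 3 of 4 in the lymphomas, 1 in dKO cells, 1 in TFH cells and none in the Id3-/- group. *Cd8a* stood at 128 in control CD4SP cells, 19.2 in dKO CD4SP cells and 1388 in the lymphomas, 2 of which were sorted on CD8. The other CD8 marker, *Cd8b1*, stood at 588 in control, 212 in dKO cells and 461 in the lymphomas. Of 3 measured markers of CD4+CD8+ thymocytes none was more than 2-fold above control in any group. More than 2-fold below control were 2 in TFH cells, 1 in dKO cells, 2 in the lymphomas and none in the Id3-/- group. The part of these cells in the values below was not tested.

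Sequences upstream of 4 members are shown. *Bcl2*, *Bcl2l1* and *Bcl2l11* were the 3 members more than 2-fold lower in dKO cells, and *Bmf* was the member with CAGCTG among those read. They were read for the E-box, bound by the E proteins that Id2 and Id3 restrain, and for the motif of FOXO factors, known regulators of *Bcl2l11*. Each is the 250 bases before the most upstream annotated start (RefSeq, GRCm38.p6), written 5′ to 3′ on the gene's strand. Capitals mark CANNTG, of which CAGCTG is 1 form, and the FOXO motif GTAAACA, searched on both strands.

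Bcl2, chr1:106714291-106714540, minus strand: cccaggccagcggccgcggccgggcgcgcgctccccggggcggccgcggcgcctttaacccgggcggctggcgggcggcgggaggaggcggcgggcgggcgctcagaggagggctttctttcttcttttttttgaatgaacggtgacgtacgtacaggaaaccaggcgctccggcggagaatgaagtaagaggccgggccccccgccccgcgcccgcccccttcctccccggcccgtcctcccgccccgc

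Bcl2l1, chr2:152831729-152831978, minus strand: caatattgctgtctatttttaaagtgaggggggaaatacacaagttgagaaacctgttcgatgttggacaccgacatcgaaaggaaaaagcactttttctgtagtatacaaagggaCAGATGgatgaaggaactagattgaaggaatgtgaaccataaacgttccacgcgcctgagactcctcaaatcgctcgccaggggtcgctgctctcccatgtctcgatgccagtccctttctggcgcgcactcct

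Bcl2l11, chr2:128125788-128126037, plus strand: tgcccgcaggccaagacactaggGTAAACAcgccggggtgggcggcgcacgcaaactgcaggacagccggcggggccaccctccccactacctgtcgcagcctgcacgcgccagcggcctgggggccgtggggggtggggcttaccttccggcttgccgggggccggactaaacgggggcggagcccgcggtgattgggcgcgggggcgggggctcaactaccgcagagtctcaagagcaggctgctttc

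Bmf, chr2:118549687-118549936, minus strand: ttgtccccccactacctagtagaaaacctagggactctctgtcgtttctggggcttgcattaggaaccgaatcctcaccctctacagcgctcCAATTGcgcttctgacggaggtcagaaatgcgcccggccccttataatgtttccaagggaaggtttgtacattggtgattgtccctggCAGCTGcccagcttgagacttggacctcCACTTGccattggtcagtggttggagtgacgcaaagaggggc

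The *Bcl2* window held none of these letters. The *Bcl2l1* window held 1 E-box and the *Bcl2l11* window the FOXO motif. The *Bmf* window held 3 E-boxes, with CAGCTG as the middle one. Windows were read for 9 of the 10 members, with 16 windows in all because some genes have several starts. *Pmaip1* was left out of this reading. Of the 9 most upstream windows, 3 held CANNTG, 1 held CAGCTG and 1 held GTAAACA. For comparison, CANNTG was present in 66.2% of the 32851 windows of all genes, CAGCTG in 13.0% and GTAAACA in 3.17%, so an E-box in a window of this length is common. All 3 annotated starts of *Bmf* had CAGCTG within their window. The FOXO motif also stood in the window of a further *Bbc3* start, and was absent from that of the other *Bcl2l11* start. A match of letters does not show that a factor binds there. The paper names *Bcl2l1* and *Bcl2l11* among direct targets of the E and Id proteins. It also drew on E2A binding data, which were not read here.

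*Bcl2* (chromosome 1, 106538178 to 106714274, mm10), the founding prosurvival gene, averaged 3463 normalized counts in control CD4SP cells, 4672 in the libraries labelled Id3-/-, 1643 in dKO CD4SP cells, 856 in the lymphomas and 689 in TFH cells. It was thus highest in the libraries labelled Id3-/- and lowest in TFH cells. The level in TFH cells was 5.03-fold under control, with 353 of 15536 genes further down in that comparison, and the level in the lymphomas was 4.05-fold under control. The 15536 genes are those with an average of at least 10 in at least 1 group, and changes given as folds are ratios of the averages themselves, while log2 ratios are of the average plus 1. The gene models Mir3473f and Gm37053 overlap *Bcl2* on the same strand.

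*Bcl2l1* (chromosome 2, 152780668 to 152831728), which encodes BCL-XL, averaged 751 in control CD4SP cells and 765 in the Id3-/- group, 383 in TFH cells, 315 in dKO CD4SP cells and 253 in the lymphomas. *Mcl1* (chromosome 3, 95658788 to 95663176), whose short-lived protein is needed at most stages of T cell life, had the same order but for the first pair. Its averages were 7955 in control, 7747 in the Id3-/- group, 5178 in TFH cells, 4276 in dKO cells and 3566 in the lymphomas. Across the 5 groups *Mcl1* varied least of the 10 members, with the highest average 2.23-fold over the lowest.

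*Bcl2l2* (chromosome 14, 54883377 to 54888234), which encodes BCL-W, stood at 118 in control, 117 in TFH cells, 123 in the Id3-/- group and 161 in dKO cells. Its average in the lymphomas was 53.6. The lymphomas were the only group in which it was more than 2-fold away from control. The gene model Gm20521 overlaps it on the same strand, and reads may be split between them.

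*Bcl2a1b* (chromosome 9, 89199209 to 89207827), a copy of the A1 gene that antigen receptor signals and NF-κB induce, was the exception among the prosurvival genes. It averaged 293 in control CD4SP cells, 533 in the Id3-/- group, 599.9 in the lymphomas, 735 in dKO cells and 1843 in TFH cells. The TFH level was the highest, and 486 genes had a larger ratio to control there. A1 is also made by B cells and myeloid cells, and 6 of 6 B cell markers were higher in TFH cells too, with sums as given above. In the lymphomas 1 of 6 B cell markers and 4 of 6 myeloid markers were higher. The part of B cells and myeloid cells in the *Bcl2a1b* values was not tested. The gene model Gm29094 overlaps *Bcl2a1b* on the same strand, and *Bcl2a1b* has near-identical copies that can share its reads. Of these *Bcl2a1c* averaged from 0.43 to 9.14, and *Bcl2a1a* and *Bcl2a1d* were not analysed here.

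**Figure D1:**
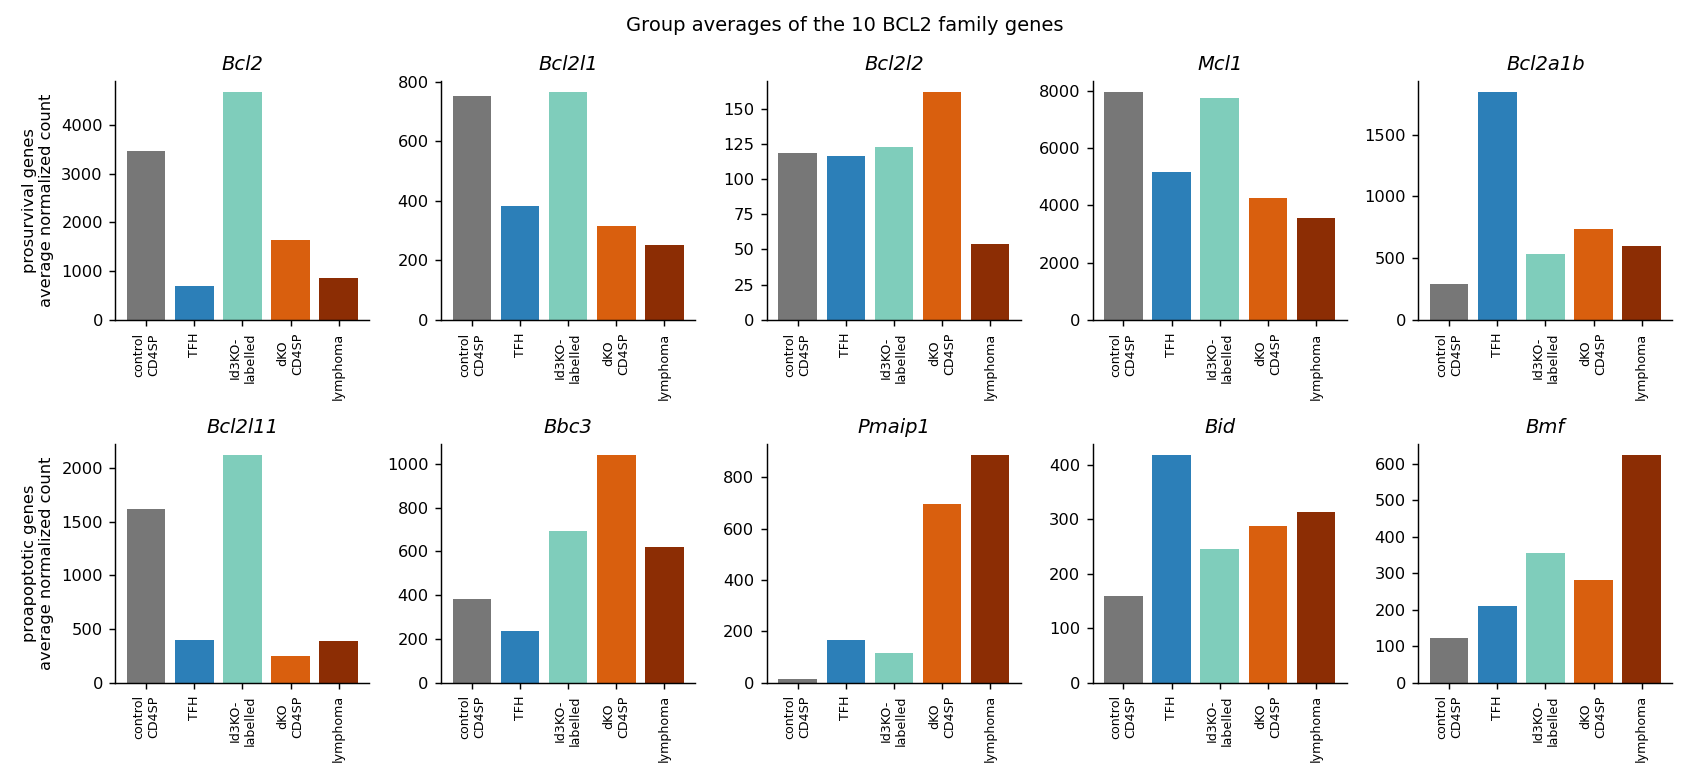
Average normalized count of each member in the 5 groups, with 1 panel per gene and a linear axis of its own from 0; prosurvival genes are in the upper row and proapoptotic genes in the lower row, and bars are group averages without error. *Pmaip1* runs from 14.5 in control CD4SP cells to 886 in the lymphomas, and *Bcl2l11* from 2122 in the Id3-/- group to 244 in dKO CD4SP cells.

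*Bcl2l11* (chromosome 2, 128126038 to 128162547), which encodes BIM, averaged 1622 in control CD4SP cells, 2122 in the Id3-/- group, 393 in TFH cells, 389.7 in the lymphomas and 244 in dKO CD4SP cells. It was the only proapoptotic gene below control in dKO cells and in the lymphomas. The dKO level was 6.66-fold under control, and 176 of the 15536 genes had a lower ratio. In TFH cells 485 genes had a lower ratio and in the lymphomas 1008.

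*Pmaip1* (chromosome 18, 66458533 to 66465565), which encodes NOXA, a partner of MCL1 and A1, had the widest range of the 10 members. Its average was 14.5 in control CD4SP cells, 115 in the Id3-/- group, 166 in TFH cells, 695 in dKO CD4SP cells and 886 in the lymphomas. Relative to control this was 7.93-fold, 11.5-fold, 47.9-fold and 61.1-fold higher. The number of genes with a larger ratio was 117 in the Id3-/- comparison, 261 in TFH cells, 64 in dKO cells and 100 in the lymphomas. With 1 added to each average the log2 ratios were 2.90, 3.43, 5.49 and 5.84, and at this low control average they depend on the value added.

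*Bbc3* (chromosome 7, 16308393 to 16318205), which encodes PUMA and is a target of p53 and of FOXO factors, averaged 384 in control, 234 in TFH cells, 621 in the lymphomas, 695 in the Id3-/- group and 1041 in dKO cells. It was highest in dKO CD4SP cells and lowest in TFH cells. *Bmf* (chromosome 2, 118528757 to 118549687), whose protein is released from the cytoskeleton on loss of attachment, averaged 123 in control, 209 in TFH cells, 279.7 in dKO cells, 354 in the Id3-/- group and 623 in the lymphomas. *Bid* (chromosome 6, 120891930 to 120916853), which links death receptors to the mitochondria once cleaved, ranged only 2.62-fold, from 159 in control to 418 in TFH cells, with 246 in the Id3-/- group, 288 in dKO cells and 314 in the lymphomas. Gm44260 overlaps *Bid* on the same strand.

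Loss of both Id2 and Id3 before any tumour was the first question of the design. In dKO against control CD4SP cells 4 of 10 members were more than 2-fold higher, where 14.1% of all 15536 genes were, and 3 of 10 were more than 2-fold lower, where 10.1% were. The higher members were *Pmaip1* (log2 ratio 5.49), *Bbc3* (1.44), *Bcl2a1b* (1.32) and *Bmf* (1.18), of which 3 are proapoptotic. The lower ones were *Bcl2l11* (-2.73), *Bcl2l1* (-1.25) and *Bcl2* (-1.08). *Mcl1* at -0.90, *Bid* at 0.85 and *Bcl2l2* at 0.45 were within 2-fold. The median log2 ratio was -0.90 over the prosurvival and 1.18 over the proapoptotic genes, beside 0.02 over all genes. The paper describes the dKO CD4SP cells as an expanding, oligoclonal population that is innate and TFH-like. Gene loss within a cell and a different make-up of the cells under the same gate cannot be told apart here.

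In the libraries labelled Id3-/-, 2 of 10 members were more than 2-fold above control, beside 5.57% of all genes, and none was lower, beside 4.43%. Those 2 were *Pmaip1* (2.90) and *Bmf* (1.52). *Bcl2a1b* (0.86) and *Bbc3* (0.85) fell short of the threshold. The prosurvival median was 0.05 and the proapoptotic median 0.85, beside -0.01 over all genes. *Bcl2* and *Bcl2l11* had ratios of 0.43 and 0.39 in this group, both on the other side of 0 from their values in dKO cells. All 4 comparisons with control share the same control libraries.

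TFH cells were a second, wild-type T cell state set against the same controls. Here 3 members were more than 2-fold higher, beside 11.8% of all genes, namely *Pmaip1* (3.43), *Bcl2a1b* (2.65) and *Bid* (1.39). *Bcl2* (-2.33) and *Bcl2l11* (-2.04) were the 2 that were lower, beside 9.8% of all genes, and *Bcl2l1* at -0.97 was just inside the threshold. Medians were -0.62 for prosurvival and 0.76 for proapoptotic genes, with -0.02 over all genes. Tissue, immunization and gate all differ between TFH and CD4SP cells, and their parts cannot be told apart.

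**Figure D2:**
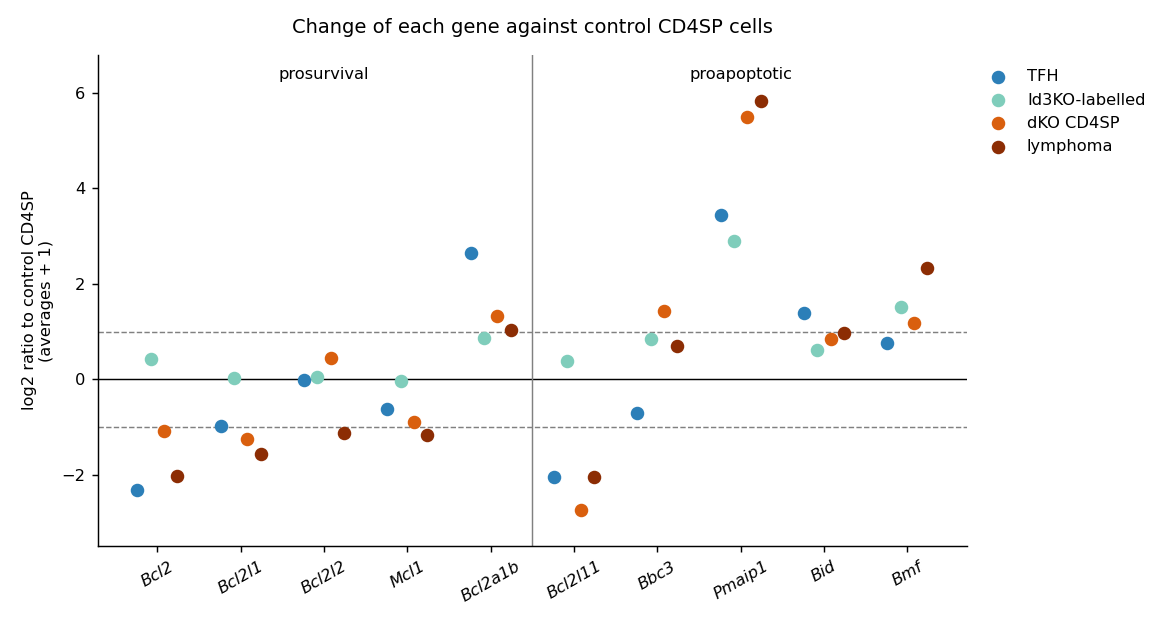
Log2 ratio of each member, group average plus 1 over control average plus 1, in TFH, Id3-/- labelled, dKO and lymphoma groups, prosurvival and proapoptotic genes in separate blocks. *Bcl2*, *Bcl2l1* and *Mcl1* lie below 0 in TFH, dKO and lymphoma columns, *Bcl2a1b* above 0 in all 4, and *Bcl2l11* reaches -2.73 in dKO cells.

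The lymphomas had the lowest average of *Bcl2l1*, *Bcl2l2* and *Mcl1* among the groups. Against control CD4SP cells 5 members were more than 2-fold lower, beside 17.2% of all genes, and 3 were more than 2-fold higher, beside 18.2%. The lower members were 4 of the 5 prosurvival genes, *Bcl2* (-2.02), *Bcl2l1* (-1.57), *Mcl1* (-1.16) and *Bcl2l2* (-1.12), together with *Bcl2l11* (-2.05). The higher members were *Pmaip1* (5.84), *Bmf* (2.33) and *Bcl2a1b*, which at 1.03 was just past the threshold, while *Bid* at 0.97 was just inside it. The part of B cells and myeloid cells in this *Bcl2a1b* value was not tested. The medians were -1.16 and 0.97, with 0.02 over all genes. In bulk RNA a smaller share of cells that express a gene and less RNA per cell cannot be told apart.

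**Figure D3:**
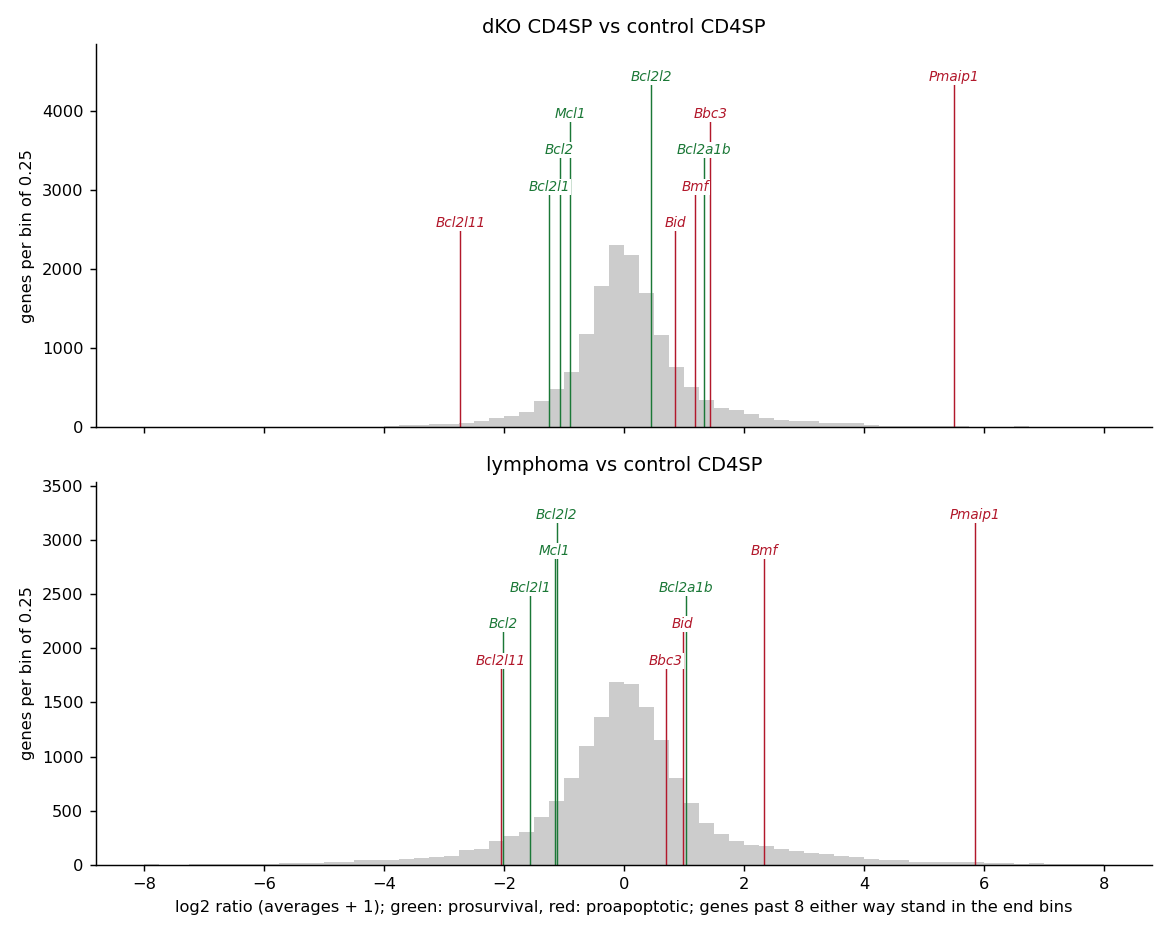
Distribution of log2 ratios over the 15536 genes (grey, genes per bin of 0.25) for dKO CD4SP cells and for lymphomas, each against control, with lines at the 10 members. *Pmaip1* stands at 5.49 and 5.84 in the upper tail, and *Bcl2l11* at -2.73 and -2.05 in the lower tail.

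Lymphomas and dKO CD4SP cells share the gene loss and differ in being tumours or not, though also in age, organ and part of the sort. Their Cre lines may differ too, and these parts cannot be told apart. Between them 1 member was more than 2-fold higher in the lymphomas, *Bmf* (1.15), beside 11.1% of all genes, and 1 was lower, *Bcl2l2* (-1.57), beside 14.4%. The other 8 were within 2-fold, among them *Bcl2* at -0.94, *Bbc3* at -0.75, *Bcl2l11* at 0.68 and *Pmaip1* at 0.35.

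When dKO CD4SP cells were set against TFH cells, 3 members were higher in dKO cells by more than 2-fold, beside 15.3% of all genes, and 1 was lower, beside 13.1%. *Bbc3* (2.15), *Pmaip1* (2.05) and *Bcl2* (1.25) were higher, and *Bcl2a1b* (-1.33) was lower. *Bcl2l11* was at -0.69, *Bcl2l1* and *Mcl1* both at -0.28.

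To compare members with one another, averages were divided by the length of each gene's merged exons in kilobases (GENCODE M21). *Mcl1* gave the largest share of the prosurvival sum in control CD4SP cells, 70.8%, in the Id3-/- group, 62.0%, in dKO cells, 51.1%, and in the lymphomas, 53.5%. In TFH cells *Bcl2a1b* took first place with 56.8% and *Mcl1* had 38.1%. *Bcl2a1b* made up 10.9% of the sum in control, 17.9% in the Id3-/- group, 36.7% in dKO cells and 37.7% in the lymphomas. The share of *Bcl2* was 11.5% in control, 14.0% in the Id3-/- group, 7.32% in dKO cells, 4.79% in the lymphomas and 1.89% in TFH cells.

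On the proapoptotic side *Bcl2l11* held 42.7% of the per-kilobase sum in control CD4SP cells, 33.5% in the Id3-/- group, 11.8% in TFH cells, 5.68% in the lymphomas and 3.35% in dKO cells. *Pmaip1* held 0.964% in control, 4.58% in the Id3-/- group, 12.7% in TFH cells, 24.1% in dKO cells and 32.6% in the lymphomas. *Bbc3* led in dKO cells with 54.5% and in the lymphomas with 34.4%, and *Bid* led in TFH cells with 39.7%. The proapoptotic messages of dKO cells and lymphomas were therefore mainly *Bbc3* and *Pmaip1*, where those of control cells were *Bcl2l11* and *Bbc3*. The prosurvival sum was 5.97-fold the proapoptotic sum in control, 8.26-fold in TFH cells, 3.98-fold in the Id3-/- group, 2.33-fold in dKO cells and 1.96-fold in the lymphomas. These are ratios of messages and say nothing of protein, which for MCL1, BIM and NOXA is set in large part by turnover. The TFH ratio leans on *Bcl2a1b*, which was 56.8% of the prosurvival sum there, beside 10.9% in control. The part of B cells and of near-identical gene copies in that value was not tested.

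**Figure D4:**
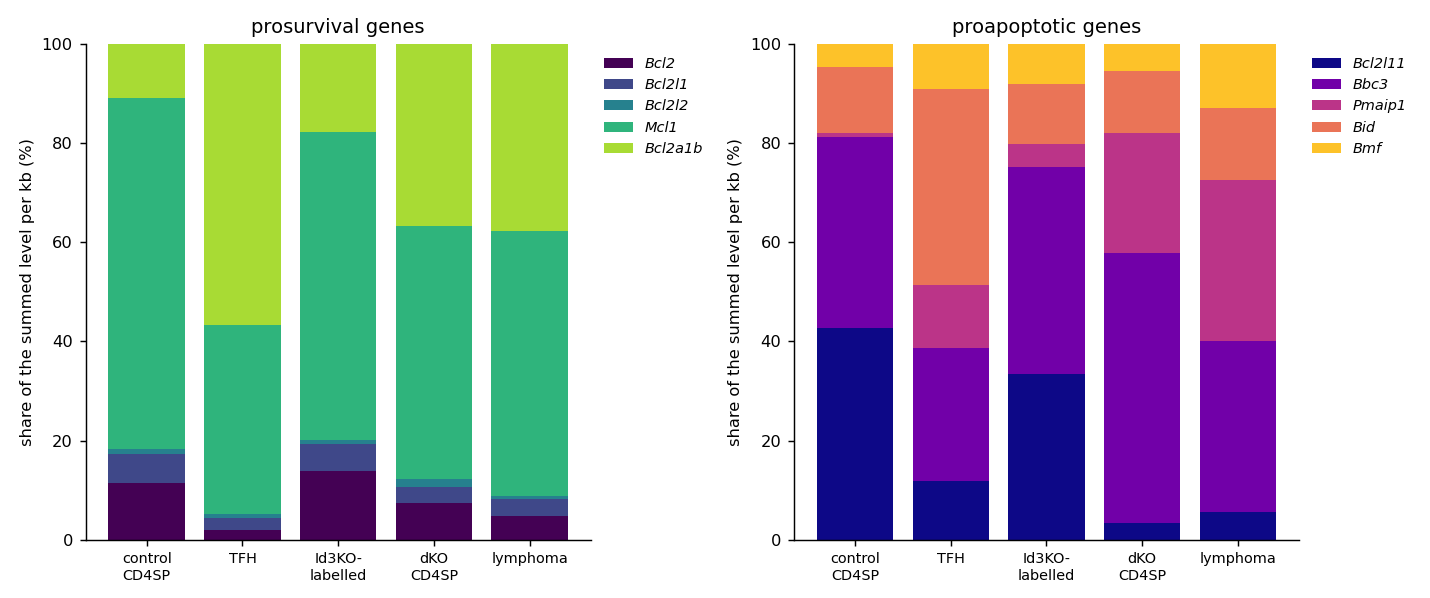
Share in percent of each member in the per-kilobase sum of its side, prosurvival and proapoptotic, stacked to 100% for each of the 5 groups. *Mcl1* fills 70.8% of the prosurvival bar in control and 38.1% in TFH cells, and *Bcl2l11* shrinks from 42.7% of the proapoptotic bar in control to 3.35% in dKO cells.

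Pairs of a prosurvival and a proapoptotic gene whose proteins bind were set against each other, as the difference of their log2 ratios to control. For *Mcl1* against *Pmaip1* it was -4.05 in TFH cells, -2.94 in the Id3-/- group, -6.38 in dKO cells and -7.00 in the lymphomas. *Bcl2a1b* against *Pmaip1* gave -0.79, -2.04, -4.17 and -4.81 in the same order. The ratio of *Pmaip1* to control was above that of both partners in each of the 4 groups, by least for *Bcl2a1b* in TFH cells. For *Bcl2* against *Bcl2l11* the differences were -0.29, 0.04, 1.66 and 0.04. In TFH cells and lymphomas the 2 genes were lower by nearly the same factor, and in dKO cells *Bcl2l11* was lower by more. *Mcl1* against *Bcl2l11* gave 1.42, -0.43, 1.84 and 0.90, and *Bcl2* against *Bmf* gave -3.09, -1.09, -2.26 and -4.35.

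**Figure D5:**
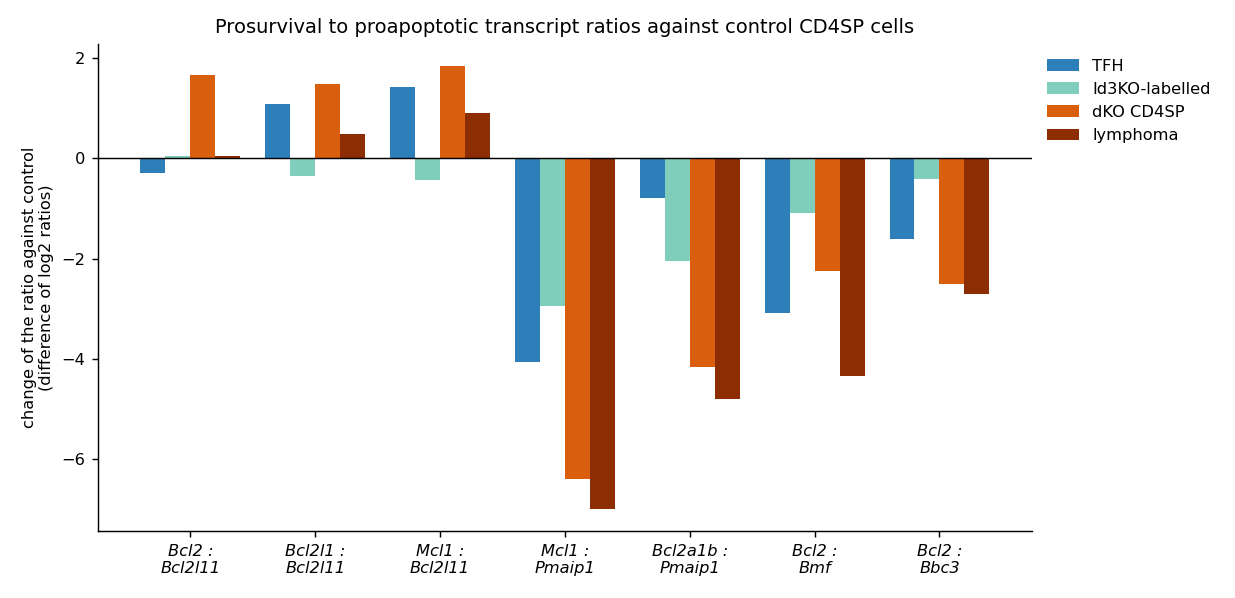
Difference of log2 ratios to control, prosurvival minus proapoptotic gene, for 7 pairs whose proteins bind, in TFH, Id3-/- labelled, dKO and lymphoma groups; values below 0 mean that the proapoptotic gene gained on its partner. *Mcl1* against *Pmaip1* reaches -7.00 in the lymphomas, and *Bcl2* against *Bcl2l11* stands at 1.66 in dKO cells and 0.04 in the lymphomas.

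The rest of the pathway was read from lists of known genes. Of all 15536 genes 14.1% were more than 2-fold higher and 10.1% lower in dKO cells. In the lymphomas these shares were 18.2% and 17.2%, in TFH cells 11.8% and 9.8%, and in the Id3-/- group 5.57% and 4.43%. No list was tested against them. Of 10 measured effector and other BCL2 family genes none was more than 2-fold lower in any comparison with control, while 2 were higher in dKO cells, 2 in the lymphomas, 1 in TFH cells and none in the Id3-/- group. Those were *Bik* and *Bcl2l15* in dKO cells, and *Bcl2l14* and *Bcl2l15* in the lymphomas, all at low averages. The pore-forming genes stayed within 2-fold, *Bax* at 822 in control, 1551 in dKO cells and 1124 in the lymphomas, and *Bak1* at 1113, 1767 and 1702. None of 11 apoptosome and caspase genes passed 2-fold in dKO cells or in the Id3-/- group, and 2 were higher in TFH cells. In the lymphomas *Casp6* was lower (log2 ratio -1.02).

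The next counts stand beside the same shares of all genes. Of 9 death receptor genes 2 were more than 2-fold lower in dKO cells, *Tnfrsf1a* (-1.64) and *Fasl* (-1.23), and 3 in the lymphomas, these (-1.67 and -2.88) and *Fas* (-1.16). In TFH cells 1 was higher and 1 lower, and in the Id3-/- group 1 was higher. The inhibitor of apoptosis gene *Birc3*, a target of NF-κB, was lower in dKO cells (-1.29) and in the lymphomas (-1.32), among 5 such genes. *Birc5*, expressed in dividing cells, was higher in the lymphomas (1.17), and none of the 5 passed 2-fold in TFH cells or in the Id3-/- group. Of 14 genes for signals and factors that act on the family, 4 were lower in dKO cells, beside 10.1% of all genes. None was higher, beside 14.1%. The lower ones were *Il7r* (-3.68), the gene that carries the Cre in these mice and whose receptor sustains *Bcl2* in T cells, *Foxo1* (-2.28), *Rel* (-1.26) and *Foxo3* (-1.04). In the lymphomas *Jun* (-3.52), *Foxo1* (-2.17), *Rel* (-1.35) and the glucocorticoid receptor gene *Nr3c1* (-1.10) were lower and *Myc* (1.46) was higher. In TFH cells 2 of the 14 were lower and 1 higher, and in the Id3-/- group none passed 2-fold. In the lymphomas *Il7r* stood at 3392, beside 3997 in control and 311 in dKO cells. The *Bcl2* averages of the same groups were 856, 3463 and 1643. The part of *Il7r* in the *Bcl2* values was not tested. None of 7 genes for the turnover of MCL1 and BIM passed 2-fold in any of the 4 comparisons with control.

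The genes whose profile over the 5 groups lay nearest to *Bcl2* among 10646 genes were *Als2cl* (root mean square difference 0.25 on the log2 scale), *Gm47283* (0.26) and *Sgk3* (0.29). Nearest to *Bcl2l11* were *Znrf3* (0.29), *Pik3r5* (0.36) and *Gata1* (0.36). *Znrf3* averaged 568 in control, 590.0 in the Id3-/- group, 192 in TFH cells, 177 in the lymphomas and 87.9 in dKO cells, the same order as *Bcl2l11*. With 5 averages per gene these likenesses are descriptions.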

How the data were processed

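Strand-specific libraries of sorted T cells were sequenced on an Illumina HiSeq instrument. The authors used OSA within Array Studio for alignment to mm10, RSEM for quantification and DESeq for normalization and testing. For tool versions, none are given in the sources used here. Each deposited signal is the average of the normalized counts of a group's libraries, so the depth of each library and the spread between libraries are unknown. The sums of the 5 group averages ran from 13386015 to 15497262. The methods state that genes under 10 in all samples were removed, but 5285 of the 39179 rows were 0 in all 5 groups. The other 12 columns hold the authors' fold changes, p-values and false discovery rates for 4 comparisons and were not used.

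Groups followed the sample labels. All 6 comparisons were made as the log2 ratio of the averages plus 1, over the 15536 genes whose average reached 10 in 1 group or more, and a gene was counted when it passed 2-fold. No test could be run. Exon lengths came from GENCODE M21 and upstream sequences from RefSeq. All 10 members were named, with genes of the pathway lists past 2-fold in dKO cells or lymphomas and, by root mean square difference, the 3 genes nearest to Bcl2 and to Bcl2l11 with an average of at least 100 in their highest group. The Id genes and single marker genes were named as checks of the labels. Some single-gene values are not reported here. The members and lists were chosen with earlier results of these data known. Other pseudocounts, filters, a centring on the median gene and another gene length were tried. Calculations used Python 3.11.15, numpy 2.4.6 and pandas 2.3.3, and the ratio step was tested on simulated data.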

Additional observations from a re-analysis of the deposited data

How the results depend on the processing

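The 60 member ratios were recomputed with no pseudocount, with a pseudocount of 10, with a filter at 50, with every gene that had an average above 0 and after centring on the median gene. Of 300 values 294 moved by less than 0.1 on the log2 scale, 6 moved by more and 1 changed sign, that of *Bcl2l2* in TFH cells, which was -0.02 and became 0.0034 after centring, and no count of members past 2-fold changed. All 6 were with the pseudocount of 10, where *Pmaip1* stood at 2.85 in TFH cells, 2.35 in the Id3-/- group, 4.85 in dKO cells and 5.19 in the lymphomas, and *Bcl2l2* at -1.01 in the lymphomas against control and -1.43 against dKO cells. The percentage of all genes past 2-fold moved more, and only some of its shifts are given here. With the pseudocount of 10 it was 6.03% lower in TFH cells, 3.25% higher and 1.29% lower in the Id3-/- group, 11.1% lower in the lymphomas against control and 8.52% lower against dKO cells. In dKO cells against control it was then 9.65% higher and 6.76% lower. Over genes with any average above 0 it was 9.43% lower in the Id3-/- group, 9.94% higher in the lymphomas against control and 6.81% higher against dKO cells. For lymphomas against dKO cells it was then 21.4% lower. With the filter at 50 it was 1.87% lower in the Id3-/- group and 8.81% lower in the lymphomas against dKO cells. With the longest coding transcript as gene length, chosen after seeing the data, the prosurvival sum was 5.47-fold, 8.03-fold, 3.77-fold, 2.38-fold and 1.97-fold the proapoptotic sum in control, TFH, Id3-/- labelled, dKO and lymphoma groups, and *Bcl2l11* in place of *Bbc3* led the proapoptotic genes of the Id3-/- group. No paired analysis was possible because the table holds 1 average per group, and for the same reason no library could be left out and the 2 CD8+ lymphomas could not be read apart.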
